A study of Mus musculus with 11 samples.

Results

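The genes described here are *Nfe2l2*, which encodes the transcription factor NRF2, its repressor *Keap1*, and 8 genes known as NRF2 targets: *Nqo1*, *Hmox1*, *Gclc*, *Gclm*, *Txnrd1*, *Srxn1*, *Gsr* and *Slc48a1*. They were chosen by gene symbol, and all 10 were found among the 18667 genes listed. RNA-Seq was performed on whole cochleae of mice aged 2 months, 5 *Atf6*+/+ (labelled WT) and 6 *Atf6*-/- (labelled ATF6 Knockout), to ask how loss of ATF6 changes the cochlear transcriptome. ATF6 is a transcription factor of the ER stress response. The mice of both groups were littermates on a C57BL/6J background, which carries the *Cdh23* ahl allele of age-related hearing loss, and were of either sex. The knockout is not described as limited to a cell type, and the labels do not give the sex of a library. Each library came from an individual cochlea. Nothing says whether any 2 cochleae shared a mouse, so p-values measure only the spread between libraries. Values are FPKM, fragment counts scaled to library size and transcript length. Differences are on the log2(FPKM + 0.1) scale, *Atf6*-/- minus *Atf6*+/+.

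NRF2 is a basic leucine zipper factor that switches on antioxidant and detoxifying enzymes. In resting cells KEAP1 holds NRF2 and hands it to the CUL3 ubiquitin ligase, which leads to its degradation by the proteasome. Oxidants and electrophiles modify cysteines of KEAP1, NRF2 then accumulates, pairs with a small MAF protein and binds the antioxidant response element. PERK, the ER stress kinase, is also known to phosphorylate NRF2. Because NRF2 is controlled largely through protein stability, the RNA of its targets is the usual readout of its activity. Oxidative damage is a known feature of noise, drug and age-related injury of the cochlea.

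The targeted gene was checked first. *Atf6* lay between 8.25 and 10.56 FPKM in *Atf6*+/+ and between 3.83 and 4.59 FPKM in *Atf6*-/- cochleae, a difference of -1.13 (standard error 0.084, limma adjusted p = 5.17e-05). RNA of the gene was thus still counted in the knockout. Library sums ran from 462005 to 537926 FPKM. The counting error of each value is unknown, since only FPKM were used. Cochlear marker genes were present in every library, with a summed level of 3384 to 5143 FPKM for 12 markers in *Atf6*+/+ and 4395 to 6327 FPKM in *Atf6*-/- cochleae, and 11 of the 12 had a difference above 0, as did 45.3% of all genes tested. A lenient call took every gene whose difference exceeded 0.05 in size and whose unadjusted limma p did not exceed 0.05, and 2 of the 12 met it, against 9.85% of all genes tested. The sum of this list rests mostly on *Coch* and *Otos*. *Kcne1*, a potassium channel subunit of the stria vascularis, was at 0.10 FPKM in *Atf6*+/+ replicate 4 and between 3.39 and 22.76 FPKM in the other libraries. Markers of blood, bone marrow and bone had lower mean log2 levels in *Atf6*-/-. All 9 erythroid markers were lower in *Atf6*-/- (summed level 4827 to 46393 FPKM in *Atf6*+/+ and 2870 to 9375 FPKM in *Atf6*-/-), as were all 8 neutrophil markers (256 to 3176 FPKM and 92.5 to 1199 FPKM) and all 6 B cell markers (9.06 to 33.5 FPKM and 7.19 to 13.3 FPKM). The 6 bone markers were lower as well (226 to 1806 FPKM and 167 to 712 FPKM), with a lenient call for 0 of them, beside 6 of the erythroid, 4 of the neutrophil and 3 of the B cell markers. *Atf6*+/+ replicate 3 stood apart with the highest neutrophil level. Macrophage markers overlapped, at 182 to 268 FPKM and 128 to 236 FPKM for 10 genes, of which 3 were higher in *Atf6*-/- and 0 met the lenient call. No marker of these lists was at 0 in every library. In such whole-tissue RNA, fewer cells of a type and less RNA per cell cannot be told apart.

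The antioxidant response element is the DNA word through which NRF2 acts on these genes, so it was looked for in RefSeq promoter windows (assembly GRCm38.p6, 250 bases before to 50 after each gene start). The files here hold no coordinates and were made on GRCm39. The core letters TGACNNNGC were searched on both strands. Of the 10 genes, 6 had a window and 4 of those held the word, against 14.0% of 27025 genes in the table. The matches are shown to let the spacing of the core be seen, on the strand that reads TGACNNNGC, with the core in capitals and 10 bases on each side.
Nfe2l2 (chr2:75704885-75704913, minus strand, centre 236 bases before the start): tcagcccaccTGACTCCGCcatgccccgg
Gclm (chr3:122245413-122245441, minus strand, centre 130 bases before the start): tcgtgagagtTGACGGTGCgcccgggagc
Txnrd1 (chr10:82859104-82859132, minus strand, centre 88 bases before 1 of 3 starts): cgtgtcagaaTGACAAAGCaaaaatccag
Srxn1 (chr2:152105542-152105570, minus strand, centre 33 bases after the start): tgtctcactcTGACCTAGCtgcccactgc
The windows of *Keap1* and *Nqo1* did not hold these letters, and *Hmox1*, *Gclc*, *Gsr* and *Slc48a1* had no entry. A match is a description of letters and not of a bound site. Letters outside the windows were not searched, so a window without a match does not mean that the gene lacks the element.

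All 10 genes were expressed in the *Atf6*+/+ cochlea. The haem transporter gene *Slc48a1* was highest at 88.0 ± 4.19 FPKM (SD, n = 5), followed by *Srxn1* at 46.6 ± 2.78, *Nfe2l2* at 38.0 ± 1.98, *Txnrd1* at 26.8 ± 1.27, *Keap1* at 25.7 ± 1.01, *Gclc* at 21.2 ± 1.80, *Gclm* at 20.1 ± 2.06, *Gsr* at 13.2 ± 2.98, *Hmox1* at 13.1 ± 2.08 and *Nqo1* at 8.09 ± 0.989 FPKM. Neighbours in this order whose *Atf6*+/+ ranges overlapped were *Txnrd1* and *Keap1*, *Gclc* and *Gclm*, *Gclm* and *Gsr*, and *Gsr* and *Hmox1*. The other neighbours did not overlap. *Slc48a1* was above 94.7% of the genes tested by its mean level, and *Nqo1*, the lowest, above 48.2%. *Nqo1*, often used as the leading readout of NRF2, was thus the least abundant of the group in this tissue.

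Between genotypes, no NRF2 gene passed the test. Of the 10, all tested, 0 had an adjusted p under 0.05 (limma, Benjamini-Hochberg over 16169 genes), against 0.0680% of all genes tested. The lenient call was met by 0 of the 10, against 9.85% of all genes. The ranges of the genotypes overlapped for each of the 10, while 1.25% of all genes tested did not overlap. The median difference was -0.025, beside -0.013 for all genes tested, with 3 genes above 0, as were 45.3% of all genes, and 7 below. An absolute difference under 0.1 was found for 8 of the 10, for 54.9% of all genes and for 68.4% of the 7513 genes within the range of levels of the 10. With 10 genes, these counts are near the background. The split of signs followed the scaling, since 8 were above 0 after each library was rescaled to a common sum (TPM), where the median was 0.031 and that of all genes 0.041.

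**Figure D1:**
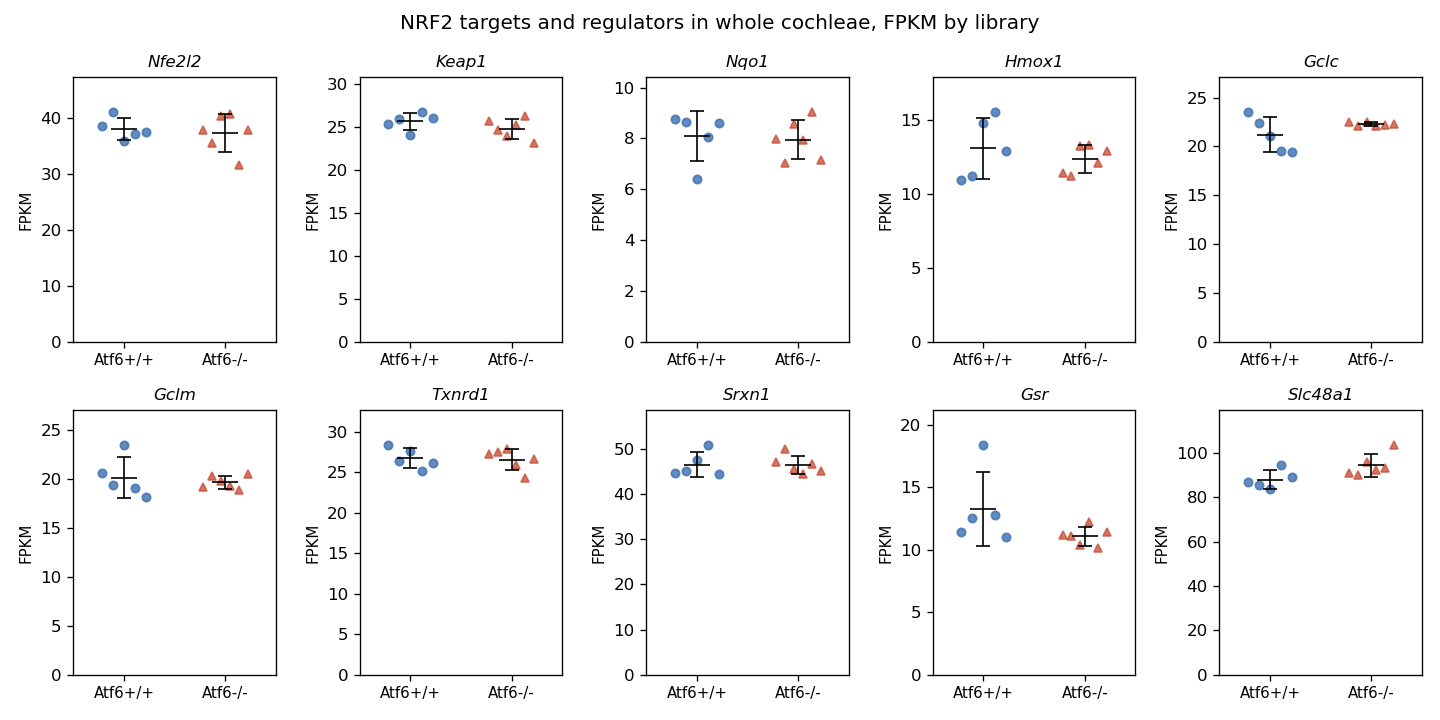
FPKM of each of the 10 NRF2 genes by library, with 5 Atf6+/+ libraries as circles, 6 Atf6-/- libraries as triangles, and mean ± SD as black bars; each vertical axis starts at 0. The ranges of the genotypes overlap for every gene, and the widest Atf6+/+ spread is that of Gsr, with 1 library at 18.40 FPKM.

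The intervals of these differences were about as narrow as those of genes of like level. All 10 of the 95% intervals lay between -0.5 and 0.5 on the log2 scale, as for 72.3% of all genes tested and 93.1% of the 7513 genes of like level, and 8 lay between -0.25 and 0.25, as for 39.4% and 62.7%. The median width of the interval was 0.249, against 0.402 for all genes tested and 0.298 for the genes of like level. Leaving out *Gsr*, the intervals allowed no level in *Atf6*-/- cochleae below 0.825 times (*Hmox1*) or above 1.153 times (*Slc48a1*) that in *Atf6*+/+. For *Gsr* the interval ran from 0.717 to 1.01 times. These bounds hold for the FPKM scale without marker scores. After TPM the upper limit for *Slc48a1* was 1.206 times and that for *Gclc* 1.226 times, and with the bone marrow score the limits were 0.743 times at the lowest (*Nqo1*) and 1.273 times at the highest (*Hmox1*).

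**Figure D2:**
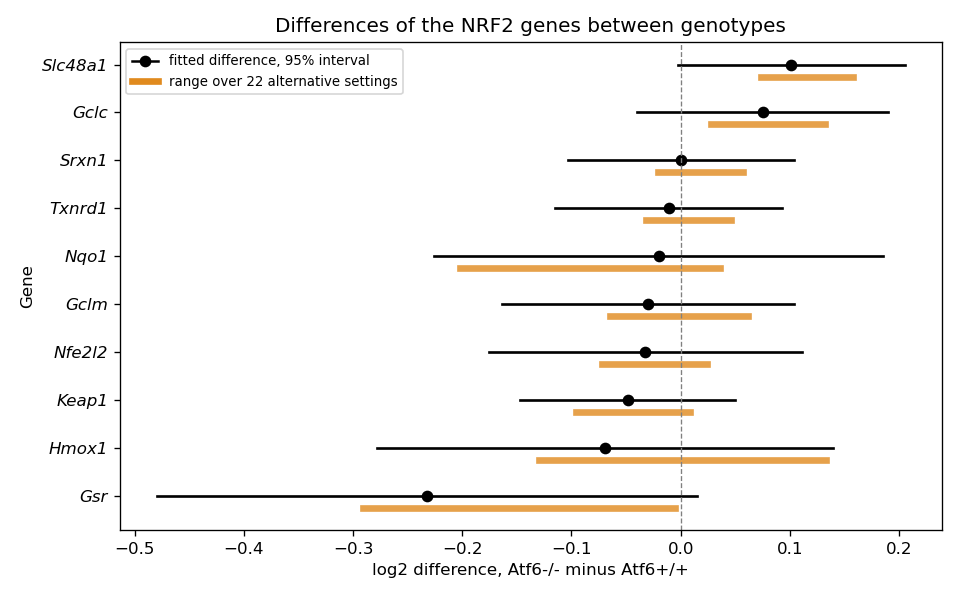
Log2 difference of each NRF2 gene, Atf6-/- minus Atf6+/+ (horizontal axis), with its 95% limma interval (black) and the range of the fitted difference over 22 alternative settings (orange). Every interval spans 0; Gsr at -0.23 and Slc48a1 at 0.10 lie farthest from it.

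Among the regulators, *Nfe2l2* measured 38.64, 41.11, 35.88, 37.05 and 37.53 FPKM in *Atf6*+/+ replicates 1 to 5. In *Atf6*-/- cochleae its lowest, median and highest values were 31.54, 37.8 and 40.75 FPKM. Only *Atf6*-/- replicates 2 and 5 were below every *Atf6*+/+ library, and none was above. The difference was -0.032 (95% interval -0.18 to 0.11, limma adjusted p = 0.890). *Keap1*, the substrate adaptor that targets NRF2 for ubiquitination, had 25.41, 25.98, 24.11, 26.82 and 26.10 FPKM in *Atf6*+/+ and 23.16, 24.9 and 26.33 FPKM as lowest, median and highest in *Atf6*-/- cochleae. Its libraries were the tightest of the *Atf6*+/+ group, with a coefficient of variation of 3.94%. The difference was -0.048 (95% interval -0.15 to 0.050, limma adjusted p = 0.725), and lay between -0.096 and 0.0082 over 22 alternative settings.

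NRF2 drives glutathione synthesis through both subunits of glutamate-cysteine ligase, the rate-limiting enzyme of the pathway. The catalytic subunit gene *Gclc* had 23.56, 22.42, 21.04, 19.56 and 19.43 FPKM in *Atf6*+/+ cochleae. In *Atf6*-/- cochleae it lay between 22.05 and 22.47 FPKM with a median of 22.3 FPKM, inside the *Atf6*+/+ range in all 6 libraries. Its difference was 0.075 (95% interval -0.040 to 0.19, limma adjusted p = 0.632), from 0.045 without *Atf6*+/+ replicate 5 to 0.11 without replicate 1, 0.13 after TPM and 0.028 with a bone marrow score in the fit, the mean of the erythroid, neutrophil and B cell scores. *Gclm*, the modifier subunit that makes the enzyme more efficient, had 20.55, 19.36, 23.49, 19.07 and 18.19 FPKM in *Atf6*+/+ and from 18.87 to 20.45 FPKM with a median of 19.5 FPKM in *Atf6*-/- cochleae. *Atf6*+/+ replicate 3 was the highest of all 11 libraries for *Gclm*, and the groups overlapped. The difference was -0.030 (95% interval -0.16 to 0.10, limma adjusted p = 0.892), and 0.027 without *Atf6*+/+ replicate 3.

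*Gsr* encodes glutathione reductase, which returns oxidised glutathione to its reduced form with NADPH. It had 11.42, 12.52, 18.40, 12.80 and 11.05 FPKM in *Atf6*+/+ and 10.14, 11.1 and 12.24 FPKM as lowest, median and highest in *Atf6*-/- cochleae. The high value was that of *Atf6*+/+ replicate 3, the library with the most neutrophil RNA. The difference was -0.23 (95% interval -0.48 to 0.015, limma adjusted p = 0.513), and -0.11 without that library. Leaving out any other single library gave from -0.29 (*Atf6*+/+ replicate 5) to -0.21 (*Atf6*-/- replicate 5), with -0.28 without *Atf6*+/+ replicate 1. With the mean log2 level of the neutrophil markers in the model, a setting added after the values were seen, it was -0.066. When the bone marrow score was fitted instead, it was -0.0049.

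In the thioredoxin branch, *Txnrd1*, the cytosolic thioredoxin reductase, had 28.43, 26.38, 27.71, 25.24 and 26.18 FPKM in *Atf6*+/+ and from 24.33 to 27.86 FPKM with a median of 26.9 FPKM in *Atf6*-/- cochleae. The groups overlapped almost entirely, and the difference was -0.011 (95% interval -0.11 to 0.093, limma adjusted p = 0.955). *Srxn1*, sulfiredoxin, which repairs over-oxidised peroxiredoxins, had 44.62, 45.21, 47.69, 50.98 and 44.41 FPKM in *Atf6*+/+ and from 44.46 to 50.05 FPKM with a median of 46.2 FPKM in *Atf6*-/- cochleae. Every *Atf6*-/- value lay inside the *Atf6*+/+ range. The difference was 9.7e-05 (95% interval -0.10 to 0.10, limma adjusted p = 0.9996), the smallest of the 10. *Nqo1*, NAD(P)H quinone dehydrogenase 1, which reduces quinones by 2 electrons at once, had 8.76, 8.66, 6.39, 8.05 and 8.59 FPKM in *Atf6*+/+ and 7.05, 7.97 and 9.05 FPKM as lowest, median and highest in *Atf6*-/- cochleae. *Atf6*+/+ replicate 3 was here the lowest of all 11 libraries. The difference was -0.020 (95% interval -0.23 to 0.19, limma adjusted p = 0.957), or -0.10 without that library. It was -0.20 (95% interval -0.43 to 0.024, limma adjusted p = 0.970) when the bone marrow score was fitted too, and -0.13 with the neutrophil markers.

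The remaining pair handles haem. *Hmox1*, the inducible haem oxygenase, which opens haem to biliverdin, iron and carbon monoxide, had 10.93, 11.19, 14.77, 15.56 and 12.91 FPKM in *Atf6*+/+ cochleae. In *Atf6*-/- cochleae its lowest, median and highest values were 11.21, 12.5 and 13.29 FPKM, all within the *Atf6*+/+ range. The difference was -0.069 (95% interval -0.28 to 0.14, limma adjusted p = 0.826), and ran from -0.13 without *Atf6*+/+ replicate 1, the lowest library (-0.12 without replicate 2, the next lowest), to -0.0033 without *Atf6*+/+ replicate 4, the highest. Fitted with the bone marrow score it was 0.13 (95% interval -0.083 to 0.35). *Slc48a1*, also known as HRG1, carries haem out of the endolysosome into the cytosol. It had 86.89, 85.71, 83.60, 94.53 and 89.37 FPKM in *Atf6*+/+ and 89.94, 92.9 and 103.78 FPKM as lowest, median and highest in *Atf6*-/- cochleae. All 6 *Atf6*-/- libraries were above the *Atf6*+/+ median and 2 were above every *Atf6*+/+ library. The difference was 0.10 (95% interval -0.0027 to 0.21, limma adjusted p = 0.505), the largest above 0 among the 10. Its unadjusted p was at most 0.05 in 5 of 22 alternative settings, the lowest being 0.00945 after rescaling to TPM, with a difference of 0.16. The lowest adjusted p in those settings was 0.357. Without *Atf6*+/+ replicate 4, the library lowest in *Kcne1*, the difference was 0.13. It was 0.074 without *Atf6*-/- replicate 6, the library highest in *Slc48a1*.

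Ratios inside a library do not depend on the scaling between libraries, and 3 were compared by exact permutation tests (two-sided, 5 against 6 libraries, smallest possible p = 0.00216, adjusted over the 3). *Nfe2l2* to *Keap1*, the factor over its repressor, was 1.381 to 1.582 in *Atf6*+/+ and 1.198 to 1.686 in *Atf6*-/- cochleae (difference 0.016 on the log2 scale, exact permutation p = 0.872, adjusted 0.872). *Gclm* to *Gclc*, the balance of the ligase subunits, was 0.863 to 1.12 and 0.849 to 0.919 (difference -0.10, exact permutation p = 0.110, adjusted 0.331), with the highest ratio in *Atf6*+/+ replicate 3 and a difference of -0.046 without it. Without *Atf6*+/+ replicate 1 or 2 the difference of this ratio was -0.13 and -0.14 (exact permutation adjusted p = 0.129 for each). *Hmox1* to *Hmox2*, the inducible over the constitutive haem oxygenase, was 0.148 to 0.184 and 0.139 to 0.202 (difference 0.037, exact permutation p = 0.716, adjusted 0.872). The ranges overlapped for all 3 ratios.

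The genes were also compared from library to library. Over the 45 pairs of the 10 genes, Pearson's correlation of log2 values centred within each genotype (11 libraries, shared by all pairs) had a median of -0.073 and ran from -0.83 for *Nqo1* with *Gsr* to 0.79 for *Gclm* with *Gsr*. Above 0.5 were 4 pairs, among them *Gclm* with *Txnrd1* at 0.57, and below -0.5 were 5. For *Nfe2l2* the values ran from -0.46 with *Srxn1* to 0.42 with *Txnrd1*, with 0.26 for *Gclc* and 0.11 for *Nqo1* between. With 11 points these values are a description, and *Atf6*+/+ replicate 3 is an extreme of *Nqo1*, *Gclm* and *Gsr*.

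The spread of *Hmox1* and *Gsr* was set beside the blood and marrow markers. The summed erythroid markers differed by 16.2 times between the highest and lowest library, while *Hmox1*, whose substrate is haem, differed by 1.42 times. The library with the most erythroid RNA, *Atf6*+/+ replicate 5 at 46393 FPKM, had 12.91 FPKM of *Hmox1*, and the one with the least, *Atf6*-/- replicate 1 at 2870 FPKM, had 11.42 FPKM. *Hmox1* was highest in *Atf6*+/+ replicates 4 and 3 and *Atf6*-/- replicate 4 (15.56, 14.77 and 13.29 FPKM). These libraries also had the most neutrophil RNA, at 1262, 3176 and 1199 FPKM. *Atf6*-/- replicate 3 came next in *Hmox1* at 13.24 FPKM, with 180.5 FPKM of neutrophil markers. For *Gsr*, *Atf6*+/+ replicate 3 was highest both in *Gsr* and in neutrophil markers, at 3176 FPKM, and the other 10 libraries lay between 10.14 and 12.80 FPKM. The part of these cells in the results was not tested beyond the fits with their markers.

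**Figure D3:**
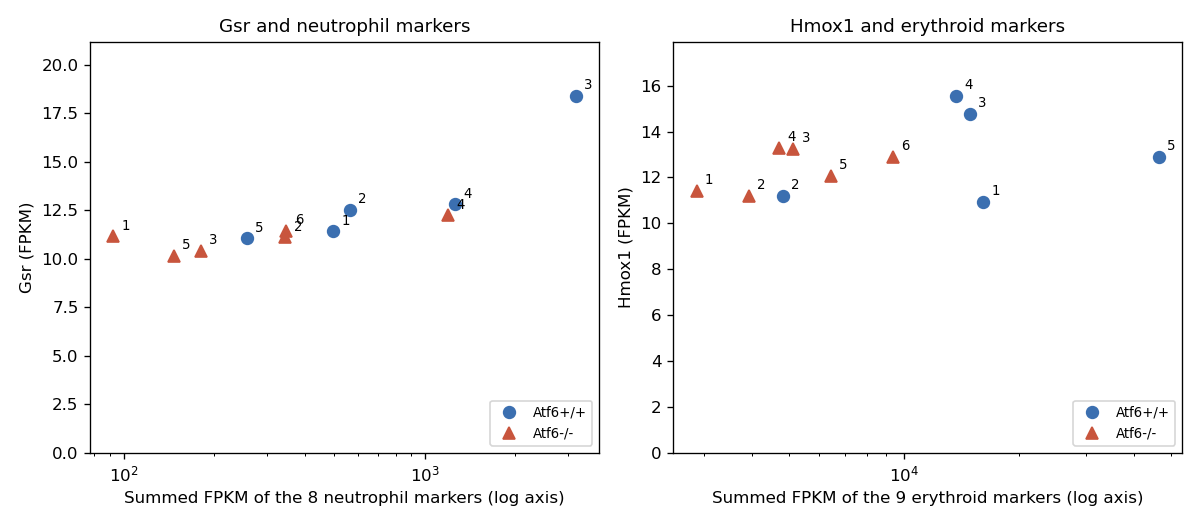
Left, Gsr (FPKM) against the summed FPKM of 8 neutrophil markers; right, Hmox1 (FPKM) against the summed FPKM of 9 erythroid markers, with log horizontal axes and 1 point per library, numbered by replicate (circles Atf6+/+, triangles Atf6-/-). Atf6+/+ replicate 3 sits alone at 18.40 FPKM of Gsr, and Hmox1 stays between 10.93 and 15.56 FPKM over the whole erythroid range.

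For 4 of the genes, the genes most like them were sought by the same centred correlation over 11 libraries, among 13610 genes that averaged 1 FPKM or more. *Nfe2l2* was most like *Tekt2*, *Clba1* and *Arhgap29* (r = 0.96, 0.95 and 0.94), *Nqo1* most like *Mr1*, *Slc9a3r1* and *Acot2* (r = 0.96, 0.95 and 0.93), *Hmox1* most like *Pdlim7*, *Arap3* and *Pfn1* (r = 0.94 for each), and *Slc48a1* most like *Rhbdl1*, *Igsf8* and *Acbd6* (r = 0.90, 0.87 and 0.86). Spearman's rho lay between 0.74 and 0.95. Without the 2 most distant libraries of each gene, r lay between 0.59 and 0.94. These are the highest of 13610 values each, and no other gene of the 10 was among them.

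Around these genes, 6 lists of the same pathways were counted, with 112 genes in all, of which 111 were tested. *Ces1g* was at most 0.02 FPKM in every library and was not tested. By the lenient call, 11 were higher and 8 lower in *Atf6*-/- cochleae (17.1% of 111, against 9.85% of all genes tested, 4.48% higher and 5.37% lower), and 0 had an adjusted p under 0.05. By list, the share with the call ran from 9.52% (conjugation) to 38.5% (glutathione turnover), to be read against the same 9.85%. The median difference was -0.024. The split of signs followed the scaling here too: after TPM 13 were higher and 2 lower, with a median of 0.033, and 13 of the 19 kept their call, while among all genes 1396 were then higher and 460 lower, against 724 and 868. Without *Atf6*+/+ replicate 3 the count was 11 (9.91%, against 7.44% of all genes tested), and after adjustment for the bone marrow score it was 7 (6.31%, against 5.28%), 6 of them among the 19. That score went with genotype, at 3.30 to 5.42 in *Atf6*+/+ and 1.87 to 3.66 in *Atf6*-/- cochleae, so these fits cannot fully separate them. A call can also be lost while the difference hardly moves, as for *Ggt1* (-0.38, and -0.37 with the score). With each library left out in turn, 9 of the 19 kept the call throughout (*Mafg*, *Chac1*, *Slc3a2*, *Cth*, *Txn1*, *Mthfd2*, *Aldh1l2*, *Tfrc* and *Trf*). Of the other 10, *Cbs* lost it in 1 of the 11 fits, *Me2* and *Mgst2* in 4, *Nfe2l3* and *Blvra* in 5, *Msrb1* and *Aldh1a1* in 6, and *Ggt1*, *Prdx6* and *Fech* in 7. Of the abundant genes without the call, *Nfe2l1* met it in 7 of 22 alternative settings, *Prdx2* in 4 and *Rbx1* in 3. The list medians given next moved with the settings: over the 22 settings they ran from -0.014 to 0.071 for the NRF2 and KEAP1 partners, from -0.0037 to 0.098 for glutathione turnover, from -0.00049 to 0.075 for NADPH supply, from -0.070 to -0.0025 for the thioredoxin group, from -0.053 to 0.013 for haem and iron and from -0.14 to -0.031 for conjugation. The highest value was that after TPM in all 6 lists. Reads of ferritin, thioredoxin and glutathione transferase genes can be shared with close copies, and their values are uncertain to that extent.

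**Figure D4:**
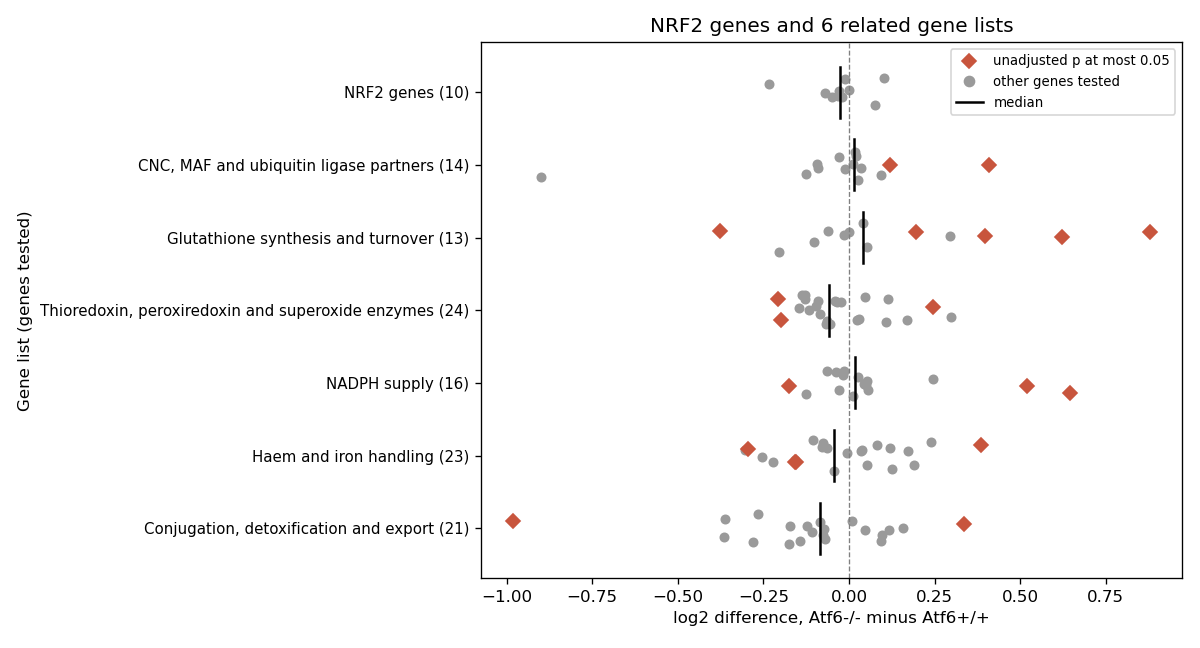
Log2 difference of each tested gene, Atf6-/- minus Atf6+/+ (horizontal axis), for the 10 NRF2 genes and 6 related lists (vertical axis, genes tested in brackets); red diamonds are genes at an unadjusted limma p of at most 0.05, grey points the others and black lines list medians. The NRF2 genes hold no diamond and run from -0.23 to 0.10.

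Of the 14 partners of NRF2 and KEAP1, 2 were higher and 0 lower by the lenient call, with a median of 0.015. *Mafg*, a small MAF partner of NRF2, had 30.1 ± 0.583 and 32.8 ± 1.41 FPKM (SD, n = 5 and 6), a difference of 0.12 (standard error 0.040, limma adjusted p = 0.407). *Nfe2l3*, a relative of NRF2, had 1.76 and 2.33 FPKM (difference 0.41, limma adjusted p = 0.469), and lost the call with the bone marrow score, where the difference was 0.10. The most abundant partners were *Sqstm1*, the autophagy receptor that binds KEAP1, with 218 and 216 FPKM (difference -0.011), *Nfe2l1*, the CNC factor of the proteasome genes, with 123 and 131 FPKM (difference 0.092), and *Rbx1*, the RING subunit of the CUL3 ligase, with 50.1 and 45.9 FPKM (difference -0.13). None of these 3 met the lenient call in the fit reported here.

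Glutathione turnover held the most lenient calls for its size, 4 higher and 1 lower of 13, with a median of 0.041. *Chac1*, which degrades glutathione, had 3.26, 4.68, 4.29, 7.21 and 2.71 FPKM in *Atf6*+/+ and 5.94 to 9.35 FPKM with overlap in *Atf6*-/- cochleae, a difference of 0.88 (standard error 0.22, limma adjusted p = 0.294). *Cth*, which makes cysteine from cystathionine, had 0.874 and 1.40 FPKM (difference 0.62, limma adjusted p = 0.350), and *Cbs*, the step before it, 5.73 and 7.64 FPKM (difference 0.40, limma adjusted p = 0.447). *Slc3a2*, the heavy chain of several amino acid exchangers, had 123 and 141 FPKM (difference 0.20, limma adjusted p = 0.368). Its partner *Slc7a11*, the cystine transporter and a known NRF2 target, named after its value was seen, had 7.28 and 7.21 FPKM (difference 0.00014, 95% interval -0.36 to 0.36). *Ggt1*, which cleaves glutathione outside the cell, was lower, at 0.802 and 0.592 FPKM (difference -0.38, limma adjusted p = 0.505). The abundant *Ggt7* and *Gss*, glutathione synthetase, differed by -0.062 and 0.041. Without *Atf6*+/+ replicate 3 the list held 3 lenient calls, *Cbs* and *Ggt1* being lost. *Chac1* and *Cth* kept the lenient call after adjustment for the bone marrow score, and *Slc3a2*, *Cbs* and *Ggt1* did not, with differences of 0.15, 0.36 and -0.37. After TPM *Ggt1* lost it at a difference of -0.35.

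Of 16 genes that supply NADPH, 2 were higher and 1 lower, with a median of 0.019. Both genes that were higher belong to mitochondrial folate metabolism. *Mthfd2* had 10.54, 12.87, 13.49, 12.75 and 10.57 FPKM in *Atf6*+/+ and from 14.98 to 19.47 FPKM in *Atf6*-/- cochleae, without overlap (difference 0.52, standard error 0.093, limma adjusted p = 0.0851). *Aldh1l2*, which releases NADPH while it oxidises formyl-tetrahydrofolate, had 1.01, 1.29, 1.07, 0.89 and 0.90 FPKM and from 1.43 to 1.85 FPKM, also without overlap (difference 0.65, limma adjusted p = 0.0882). These were the only 2 of the 111 list genes tested without overlap, against 1.25% of all genes tested. Both genes kept the lenient call with the bone marrow score. *Me2*, a malic enzyme, was lower (7.94 and 7.0 FPKM, difference -0.18, limma adjusted p = 0.475), and lost the call after TPM and with the bone marrow score, at differences of -0.12 and -0.082. The pentose phosphate enzymes *Tkt*, *Taldo1* and *G6pdx*, which NRF2 is known to activate, differed by 0.011, -0.065 and 0.048 at levels of 109, 104 and 46.9 FPKM in *Atf6*+/+ cochleae. None of these 3 met the lenient call.

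**Figure D5:**
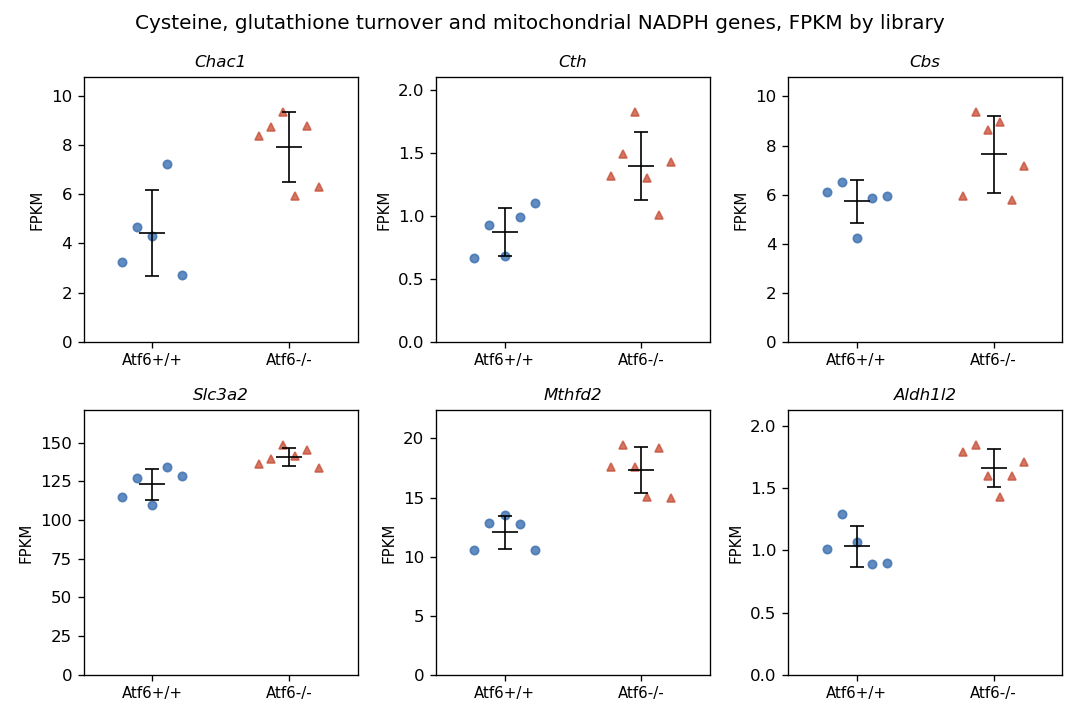
FPKM by library of 4 genes of cysteine supply and glutathione turnover (Chac1, Cth, Cbs, Slc3a2) and 2 of mitochondrial NADPH supply (Mthfd2, Aldh1l2), with 5 Atf6+/+ libraries as circles, 6 Atf6-/- libraries as triangles, and mean ± SD as black bars; vertical axes start at 0. The genotypes do not overlap for Mthfd2 and Aldh1l2, as for 1.25% of all genes tested, and they overlap for the other 4.

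Of 24 thioredoxin, peroxiredoxin and superoxide genes, 1 was higher and 2 lower, with a median of -0.059. *Txn1*, the substrate of *Txnrd1* and itself a known NRF2 target, had 51.7 ± 5.61 and 44.9 ± 2.97 FPKM (SD, n = 5 and 6), a difference of -0.20 (limma adjusted p = 0.428). *Prdx6*, a peroxiredoxin, had 98.7 and 115 FPKM (difference 0.24), and *Msrb1*, a methionine sulfoxide reductase, 45.6 and 39.3 FPKM (difference -0.21). After adjustment for the bone marrow score none of the 3 met the lenient call, and the differences of *Txn1*, *Prdx6* and *Msrb1* were -0.16, 0.0030 and -0.025. After TPM *Msrb1* lost the call at a difference of -0.15. *Atf6*+/+ replicate 3 had the lowest *Prdx6* and the highest *Msrb1* of the 11 libraries, and without it both lost the call, at differences of 0.14 and -0.14. The abundant *Sod1*, *Prdx2* and *Prdx5* differed by -0.086, -0.13 and -0.095 and did not meet the call.

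Haem and iron handling had 1 gene higher and 3 lower of 23, with a median of -0.043. After TPM it was 2 higher and 0 lower with a median of 0.013, the calls of *Tfrc*, *Fech* and *Blvra* being lost at differences of -0.24, -0.098 and -0.10. *Tfrc*, the transferrin receptor, had 45.1 ± 4.99 and 36.9 ± 5.55 FPKM (SD, n = 5 and 6), a difference of -0.30 (limma adjusted p = 0.426), and -0.39 with the bone marrow score, where it kept the lenient call. *Fech*, which completes haem synthesis, had 33.4 and 29.9 FPKM (difference -0.15) and *Blvra*, biliverdin reductase, which acts after *Hmox1*, 26.2 and 23.6 FPKM (difference -0.16). *Trf*, transferrin, had 536 and 693 FPKM (difference 0.39, limma adjusted p = 0.398), and a difference of 0.19 with the bone marrow score, where the lenient call was lost. It was lost there for *Fech* and *Blvra* too, at differences of -0.11 and -0.18. The ferritin chains *Fth1* and *Ftl1*, known NRF2 targets, stood at 3670 and 1008 FPKM in *Atf6*+/+ and 3476 and 1003 FPKM in *Atf6*-/- cochleae (differences -0.077 and -0.0056).

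Of 21 conjugation, detoxification and export genes tested, 1 was higher and 1 lower, with a median of -0.086. *Mgst2*, a microsomal glutathione transferase, had 1.89 ± 1.0 and 0.947 ± 0.528 FPKM (SD, n = 5 and 6), a difference of -0.98 (limma adjusted p = 0.481), with its highest value, 3.49 FPKM, in *Atf6*+/+ replicate 3. *Aldh1a1*, retinal dehydrogenase, had 41.8 and 51.9 FPKM (difference 0.34, limma adjusted p = 0.505). Neither met the lenient call with the bone marrow score, where the differences of *Mgst2* and *Aldh1a1* were -0.74 and 0.019. Both also lost it without *Atf6*+/+ replicate 3, where *Aldh1a1* differed by 0.21, and *Mgst2* ran from -1.19 to -0.70 with 1 library left out. The abundant *Gstp1*, *Gstm1* and *Ephx1*, classical phase II genes, differed by -0.072, 0.093 and 0.12 and did not meet the call.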

How the data were processed

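For the deposited FPKM tables the authors used HISAT2 2.0.4 for alignment, GRCm39 as the genome and RSEM for quantification (version 1.2.12 in the submitters' processing notes, another version in the paper). These FPKM values, rounded to 2 decimals, were joined by gene identifier. No fold changes or p-values of the authors were used. Genes averaging 0.1 FPKM or more in the 11 libraries were fitted with limma 3.58.1 (R 4.3.3) on log2(FPKM + 0.1), with genotype as the only term, a mean-variance trend, two-sided tests and Benjamini-Hochberg adjustment over 16169 genes. The lenient call needed a difference above 0.05 in size and an unadjusted p not above 0.05. Ratios were compared by exact permutation tests.

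Named were the 10 genes, *Atf6*, the 3 most abundant genes of each pathway list and every gene of a list with the lenient call, and the 3 genes most correlated with *Nfe2l2*, *Nqo1*, *Hmox1* and *Slc48a1*. *Hmox2* entered through a planned ratio and *Ces1g* as the list gene left untested, and *Slc7a11*, *Itgam*, *Coch*, *Otos* and *Kcne1* were named after their values were seen. The genes and lists were chosen with earlier results of these data known. Cell types were described by marker lists, whose score is the mean log2 value per library. Alternatives were pseudocounts of 0.01 and 1, other filters, scaling to TPM or by median of ratios, robust variance, a replicate block, 3 marker scores as covariates and leaving out each library. The model was tested on simulated data. Promoter windows came from RefSeq (GRCm38.p6). Python 3.11.15 was used for the other steps. Depth limits low genes most, and no counting error could be given.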

Additional observations from a re-analysis of the deposited data

Results flagged for a closer look

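*Gsr* in *Atf6*+/+ replicate 3 was 18.4 FPKM, with the nearest *Atf6*+/+ library at 12.8 FPKM, a gap of 0.762 of the range of the group. It was the only such gap in 26 groups of 5 or 6 values tested (10 genes and 3 ratios in both genotypes), and chance flags about 1 group in 20. The same library had 12.97 FPKM of *Itgam*, a myeloid integrin that was the gene most like *Gsr* over the 11 libraries (r = 0.97, rho = 0.93, and r = 0.94 without *Atf6*+/+ replicates 3 and 5), against 2.05 to 5.68 FPKM in the other 10. *Gsr* was singled out for this after its values were seen, and the part of myeloid cells in its level was not tested beyond the fits with marker scores.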

How the results depend on the processing

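None of the 10 genes had an adjusted p under 0.05 in any of the 22 alternative settings. By the lenient call, *Slc48a1* was called without a filter, after TPM and after median-of-ratios scaling (1 gene each), and leaving out 1 library gave from 0 to 2 genes: *Gclc* and *Gsr* without *Atf6*+/+ replicate 1, *Gsr* without *Atf6*+/+ replicate 5, and *Slc48a1* without *Atf6*+/+ replicate 4 or *Atf6*-/- replicate 2. The median of the 10 was 0.031 after TPM and 0.012 with the bone marrow score, and from -0.035 to -0.0099 with 1 library left out. All genes with an adjusted p under 0.05 numbered 11, and 4 with the replicate block, 6 with the bone marrow score and 7 with the neutrophil score (8 to 13 without 1 library). By the lenient call there were 1592, and 853 and 983 with those scores (1197 to 1865 without 1 library). The pathway lists had 19, and 7 and 10 (11 to 25).

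Signs of small differences changed. After TPM, *Nfe2l2* was 0.024, *Keap1* 0.0082, *Nqo1* 0.036, *Gclm* 0.027 and *Txnrd1* 0.046, and *Txnrd1* was 0.0011 with median-of-ratios scaling. *Hmox1* was 0.13 and *Gclm* 0.062 with the bone marrow score, and 0.027 and 0.030 with the neutrophil score. *Srxn1* was -0.00038 with the macrophage score. With 1 library left out, *Nfe2l2* ran from -0.059 to 0.015, *Nqo1* from -0.10 to 0.013, *Gclm* from -0.065 to 0.027, *Txnrd1* from -0.032 to 0.014, *Srxn1* from -0.021 to 0.033, the log2 ratio of *Nfe2l2* to *Keap1* from -0.018 to 0.080 and that of *Hmox1* to *Hmox2* from -0.017 to 0.091. The cause was not tested.

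Replicate numbers were not shown to pair libraries: same-numbered libraries had correlations of their deviations from -0.31 to 0.21, and 1 of 5 correlated best with its own number. With the replicate block, to which *Atf6*-/- replicate 6 adds nothing, *Nqo1* was 0.0094, the *Nfe2l2* to *Keap1* ratio -0.0088 and the *Hmox1* to *Hmox2* ratio -0.017. Added after the data were seen were the neutrophil score and all alternatives for the pathway lists.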

Other observations

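*Gclc* was unusually even in *Atf6*-/- cochleae, an observation made after its values were seen. Its 6 values had a standard deviation of 0.012 on the log2 scale, against 0.12 over the 5 *Atf6*+/+ libraries. Of 7513 genes within the range of levels of the NRF2 genes, 2, *Gclc* included, had a standard deviation in *Atf6*-/- as small as this.

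The promoter word TGACNNNGC was also counted beyond the NRF2 genes. Of 12726 genes tested that had a RefSeq window, 16.5% held it. Their median difference between genotypes was -0.016, and -0.013 for the genes without it. The lenient call was met by 10.7% of genes with the word and 9.74% of genes without it. Among the 92 genes of the 6 pathway lists with a window, 20 held the word (21.7%), *Mafg* among them. These are counts of letters in a short window, with no test.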
